A study of Mus musculus with 4 samples.

Results

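The genes described here are Ppara, Hnf4a and Zhx3, 3 liver transcription factors among the 488 genes for which a 3' UTR cluster of small RNAs was deposited for WT liver. Their members are the distinct small RNA sequences that placed to a single best position in the mouse genome (NCBIM37, the same assembly as mm9), with at least 50% of their length in a GENCODE M1 3' UTR of the gene, or past its end in steps of at most 2 kb between WT liver sequences. By this rule 131 of the 7845 listed sequences belonged to the 3 genes, of which 72 were from Ppara, 22 from Hnf4a and 37 from Zhx3. The genes were chosen for their counts in WT liver and MIWI2 KO liver, so those counts are given below as a description. The study sequenced size-selected small RNA from the liver and the spleen of 1 WT mouse and 1 MIWI2 KO mouse, all C57BL/6 adults, with 1 library per tissue and genotype. MIWI2, encoded by Piwil4, is a Piwi protein best known from fetal male germ cells. The MIWI2 KO animal was Miwi2-/-. Liver and spleen of a genotype came from the same animal, and genotype and animal cannot be told apart. No value has a replicate check and no test was made.

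Hnf4a is a nuclear receptor that keeps hepatocytes in their differentiated state and drives many genes of plasma proteins and metabolism. Ppara is a nuclear receptor activated by fatty acids, which switches on fatty acid oxidation in the fasting liver. Zhx3 is a zinc-finger and homeobox protein that acts as a transcriptional repressor. The 3' UTR is the part of an mRNA after the stop codon, and its end is set by cleavage and polyadenylation, usually a short distance after a hexamer such as AATAAA.

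Ppara lies on the plus strand of chromosome 15, and its annotated 3' UTR spans chr15:85631689-85633249 (1561 nt). Hnf4a lies on the plus strand of chromosome 2, with its main 3' UTR at chr2:163395828-163398646 (2819 nt). Zhx3 lies on the minus strand of chromosome 2, with its 3' UTR at chr2:160591518-160597350 (5833 nt). The sequences below are those of the largest group of overlapping WT liver sequences of each gene, and they show how neighbouring small RNAs share or shift their ends. They are written 5' to 3' in the direction of the gene, in the DNA letters of the deposited lists, and a capital marks a base that differs from the genome. Numbers after the gene name give the distance of the 5' end from the stop codon in nt. The Ppara group of 7 sequences, of which 6 are shown, began 8 nt past the annotated end, and of the Zhx3 group of 4 the 3 of at most 30 nt are shown.
Ppara 1569: aaaaagattgctgctgacgaaa
Ppara 1570: aaaagattgctgctgacgaaat
Ppara 1585: acgaaatgttcaaggtcagcatA
Ppara 1591: tgttcaaggtcagcattatgaaaa
Ppara 1611: aaaacactaataagaataataataagggaa
Ppara 1612: aaacactaataagaataataataagggaa
Hnf4a 199: ttgcttgagaagaccccagggaA
Hnf4a 200: tgcttgagaagaccccagggagA
Hnf4a 200: tgcttgagaagaccccagggagAa
Zhx3 2084: aaaatgtctgaacaatgtaAatgga
Zhx3 2084: aaaatgtctgaacaatgtacatggaacaga
Zhx3 2095: acaatgtacatggaacagaaacattac
Neighbours in these groups often differed by a single base at the 5' end, or shared the 5' end and differed at the 3' end. The A at the 3' end of the first 2 Hnf4a sequences is not in the genome at that position.

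In WT liver, Ppara had 67 distinct sequences, Zhx3 had 35 and Hnf4a had 22. Of the 4273 sequences in the WT liver list, these made up 1.57% for Ppara (95% exact Clopper-Pearson interval 1.22 to 1.99%), 0.819% for Zhx3 (0.571 to 1.14%) and 0.515% for Hnf4a (0.323 to 0.778%). Intervals here and below cover counting error only, and overlapping sequences are not independent. By number of WT liver sequences, the clusters ranked 7 (Ppara), 13 (Zhx3) and 29 (Hnf4a) among the 488 liver clusters, whose median was 5 sequences.

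In MIWI2 KO liver, Ppara had 5 of the 560 listed sequences (0.893%, 0.291 to 2.07%), Zhx3 had 2 (0.357%, 0.0433 to 1.28%) and Hnf4a had 0. As a share of its list, MIWI2 KO liver held 0.569 times the WT value of Ppara and 0.436 times that of Zhx3. On this scale the interval of the KO share included the WT share in both genes. For Hnf4a, the interval of 0 of 560 reached up to 0.657%, which is above its WT share of 0.515%. Among all 488 WT liver clusters, 54.9% had no MIWI2 KO sequence. Among the 34 clusters with at least 20 WT liver sequences, to which all 3 genes belong, 11.8% had none. The KO list was 0.131 times as long as the WT list, and the ratio of KO to WT sequences was 0.0746 in Ppara and 0.0571 in Zhx3, against a median of 0.108 over those 34 clusters. In units of all uniquely aligned distinct sequences of a library, which the study tabulates, Ppara had 104 per 100000 in WT liver (80.4 to 132, exact Poisson interval) and 37.6 in MIWI2 KO liver (12.2 to 87.8). On that scale Zhx3 had 54.2 (37.8 to 75.4) and 15.1 (1.82 to 54.4). Hnf4a had 34.1 (21.4 to 51.6) in WT liver and 0 (0 to 27.8) in MIWI2 KO liver. On this scale the KO intervals of Ppara and Hnf4a lay below their WT values, and that of Zhx3 just included its WT value. The WT and KO intervals overlapped in all 3 genes. The KO list as a whole was also a smaller part of its uniquely aligned sequences than the WT list was. The authors called the clusters on WT small RNAs and counted KO small RNAs within them. The WT values thus passed a minimum that the KO values did not have to pass, and its effect on the comparison was not tested. The comparison of the genes thus depends on the denominator. The lists give no read numbers, so these are numbers of different sequences and not of molecules.

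**Figure D1:**
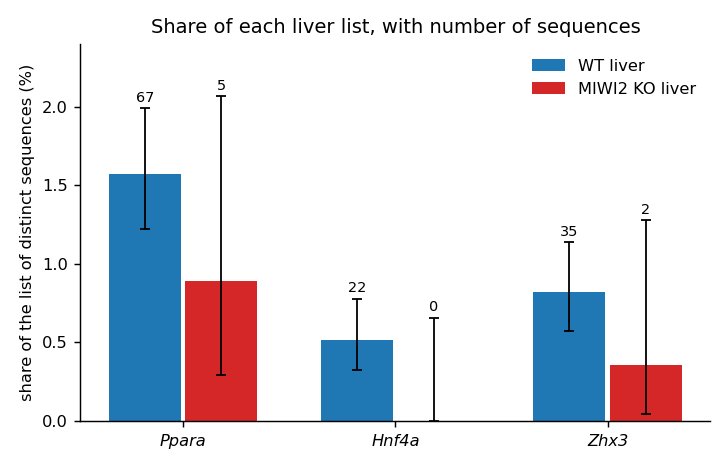
Share of the WT liver (blue) and MIWI2 KO liver (red) list, in percent, taken by the distinct sequences of each gene; bars are the values, error bars are 95% exact Clopper-Pearson intervals, and the number of sequences is printed above each. The intervals of the 2 libraries overlap for Ppara, Hnf4a and Zhx3, and Hnf4a has 0 sequences in MIWI2 KO liver.

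No sequence of any of the 3 genes was in the WT spleen list (2634 sequences) or the MIWI2 KO spleen list (378 sequences), and none of the genes had a spleen cluster. Of the 488 liver clusters, 89.1% belonged to a gene without a spleen cluster. The lists hold only sequences of clusters that passed the authors' minimum density in WT tissue, so a 0 in spleen does not limit how many small RNAs below that minimum the genes had there. Of the 378 MIWI2 KO spleen sequences, 376 lay in WT spleen clusters. For genes without such a cluster, the 0 in MIWI2 KO spleen was thus nearly fixed in advance. Other cell types and less RNA per cell cannot be told apart in such bulk tissue.

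The rule admits MIWI2 KO liver sequences past an annotated end only up to the last WT liver sequence. Of the 7 found, 3 overlapped a WT liver sequence, 4 overlapped none, and none was identical to a WT liver sequence. Of the whole MIWI2 KO liver list, 20.4% of sequences were also in the WT liver list, and 8.08% of those outside Vmp1, the host of Mir21. Of the 5 Ppara sequences, 3 lay in the annotated 3' UTR, at 302, 1196 and 1365 nt from the stop codon, and 2 lay past its end, at 2395 and 5412 nt. Those at 1196 and 5412 nt each overlapped 1 WT sequence. Both Zhx3 sequences lay in the first 1000 nt of the 3' UTR, at 698 and 824 nt, where WT liver had 3 of its 35 sequences. The latter began 4 nt from the nearest WT 5' end. It is shown here beside the 2 WT liver sequences it overlapped, a choice made after the values were seen.
Zhx3 KO 824: tagaacaaaaggaaagtgatcaa
Zhx3 WT 828: acaaaaggaaagtgatcaaagtagaA
Zhx3 WT 833: aggaaagtgatcaaagtagagA

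**Figure D2:**
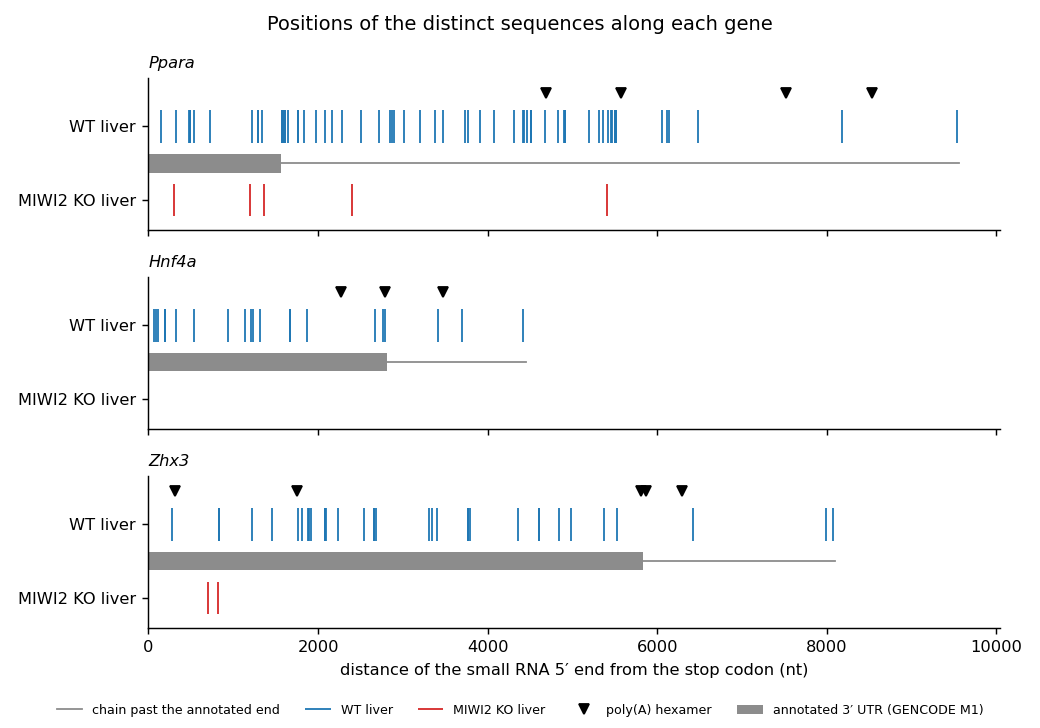
Distance of the 5' end of each distinct sequence from the stop codon, in nt, for WT liver (blue ticks) and MIWI2 KO liver (red ticks); the grey bar is the annotated 3' UTR, the thin line runs to the last WT liver sequence, and triangles mark the AATAAA hexamer. In Ppara 55 of the 67 WT ticks lie past the annotated end and 61 lie before the hexamer at 5572 nt, while in Hnf4a and Zhx3 all but 3 lie within the annotated 3' UTR.

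The genes differed in where the WT liver sequences lay relative to the annotated end. In Ppara, 12 sequences lay in the annotated 3' UTR and 55 past its end, or 82.1% of the total. Among 486 liver clusters with a GENCODE M1 3' UTR, 34.8% had at least 1 WT sequence past the annotated end, and 3.09% had more than 50% of their WT sequences there. Only Errfi1, with 87 of its 157, had more sequences past the annotated end than Ppara. In Hnf4a and Zhx3, 19 and 32 sequences were in the annotated 3' UTR, and 3 of each lay past it. The last sequences ended 8003 nt past the annotated end of Ppara, 1630 nt past that of Hnf4a and 2259 nt past that of Zhx3. The sequences farthest out are these, with the distance of the 5' end past the annotated end.
Ppara 7978: gtttacaggaaagttataaagacttA
Hnf4a 1601: tgggggctggaggagaacactcagccctaa
Zhx3 2236: cgcacctggcagcacataaccaaa

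Per length, Ppara had 7.69 WT liver sequences per kb in the annotated 3' UTR (95% exact Poisson interval 3.97 to 13.4) and 6.87 per kb past it (5.18 to 8.95). The 2 Ppara intervals overlapped, so no fall in density beyond counting error was seen at the annotated end. The density before the end rests on 12 sequences, so its interval is wide. That past the end was not recomputed without the 28 sequences nearer to a gene of the opposite strand, described below. Hnf4a had 6.74 per kb (4.06 to 10.5) before and 1.84 per kb (0.38 to 5.38) past the end, and Zhx3 had 5.49 (3.75 to 7.74) and 1.33 (0.274 to 3.88). For Hnf4a the intervals overlapped and for Zhx3 they overlapped only between 3.75 and 3.88 per kb. The stretch past the end was taken up to the last sequence found, which sets its length.

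**Figure D3:**
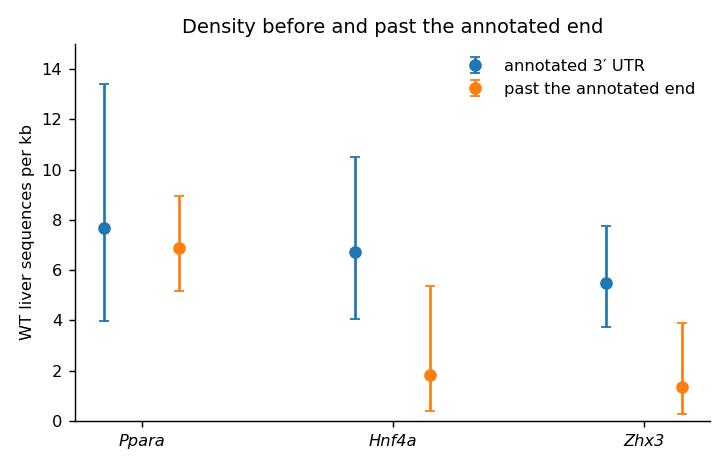
WT liver sequences per kb in the annotated 3' UTR (blue) and from its end to the last sequence (orange) for each gene; points are values and bars 95% exact Poisson intervals. Ppara has 7.69 and 6.87 per kb, whereas Hnf4a falls from 6.74 to 1.84 and Zhx3 from 5.49 to 1.33.

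Within the Ppara stretch, sequences were spread over every 1 kb window from the stop codon to 7000 nt, with 4 to 15 in each, and there were only 2 beyond 7000 nt. The 4 AATAAA hexamers of the stretch lay at 4686, 5572, 7514 and 8529 nt from the stop codon, all past the annotated end. Before the hexamer at 5572 nt there were 61 sequences, or 10.9 per kb (8.37 to 14.1), and after it 6, or 1.5 per kb (0.552 to 3.27). The last of the 61 began at 5519 nt. At the hexamer at 4686 nt the densities before and after were 10 per kb (7.37 to 13.3) and 4.1 per kb (2.5 to 6.33), with 20 sequences still to come, but the 1000 nt before it held 12 sequences and the 1000 nt after it 14, so there was no local fall. Around the hexamer at 5572 nt these numbers were 15 and 4. At the hexamer at 7514 nt the densities before and after were 8.65 and 0.976 per kb, with 2 sequences after it. At that at 8529 nt they were 7.74 and 0.966 per kb, with 1 sequence after it. The annotated end of Ppara had neither AATAAA nor ATTAAA in its last 50 nt, and the only ATTAAA of the stretch was at 1374 nt. By contrast, the last 50 nt of the annotated 3' UTRs of Hnf4a and Zhx3 each held AATAAA, 27 and 24 nt before the end. Of the 19881 most distal annotated 3' UTR ends of protein-coding genes, 75.0% held one of these hexamers in their last 50 nt. Searched in the direction of the gene, a 50 nt window held either hexamer in 2.36% of positions in the Ppara stretch, 5.11% in that of Hnf4a and 4.48% in that of Zhx3. A hexamer is a match of letters and does not show that an mRNA ends there. The WT liver sequence of Hnf4a that covers its hexamer is the following.
Hnf4a 2787: aacaaaataaatggtacttatgttAtc

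A protein-coding gene of the opposite strand, 2210021J22Rik, ends within the Ppara stretch (chr15:85637402-85642127). It had no deposited liver cluster, and the deposited Ppara cluster, chr15:85631689-85641252, ran into it. Of the 67 WT liver sequences, 6 lay inside this gene, and they were the 6 after the Ppara hexamer at 5572 nt. Of these 6, 3 touched an exon of 2210021J22Rik and 2 lay in its annotated 3' UTR. Of the 67, 28 lay nearer to its annotated end than to that of Ppara. The deposited lists print every sequence in plus-strand letters, so the strand was taken from the cluster. A mismatched base at the end of the sequence gives a measure of strand that the rule did not use. The authors called and extended clusters by sense small RNAs, so this measure is not independent of their choice of strand. Over the other liver clusters, an A at the 3' end that differs from the genome was found in 45.0% of WT sequences (1856 of 4126), whereas a T at the 5' end that differs from the genome, which is what the same A would look like in an RNA of the opposite strand, was found in 0.776% (32 of 4126). Among the 55 Ppara sequences past the annotated end, 24 had the A and 0 had the T. Of the 28 nearer to 2210021J22Rik, 10 had the A and 0 the T, and all 6 inside that gene had the A. For Zhx3, the whole 3' UTR lies within the span of Plcg1 on the opposite strand, of which none of the 35 sequences touched an exon, and 12 had the A and 0 the T.

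Along the gene, the median 5' end was 3377 nt from the stop codon in Ppara (interval from order statistics 2285 to 4426), 2661 nt in Zhx3 (2084 to 3769) and 1216 nt in Hnf4a (200 to 2676). The sequences covered 13.7% of the bases from the stop codon to the last sequence in Ppara, 10.4% in Hnf4a and 9.02% in Zhx3. They fell into 44 separate groups of overlapping sequences in Ppara, 17 in Hnf4a and 24 in Zhx3, of which 33, 13 and 18 were single sequences. The largest groups held 7, 3 and 4. The 67 Ppara sequences had 66 different 5' ends, the 22 of Hnf4a had 20 and the 35 of Zhx3 had 34. The longest stretch without a 5' end was 1707 nt in Ppara (from 6476 nt), 808 nt in Hnf4a (from 1868 nt) and 1571 nt in Zhx3 (from 6418 nt). In all 3 genes the distinct sequences were thus scattered rather than piled at a few positions. Each sequence is listed once, so a pile of identical reads at a single position would not show. In Zhx3, which has a shorter annotated isoform that ends 1168 nt from the stop codon, only 3 of the 35 sequences began before that end.

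The WT liver sequences were 18 to 32 nt long in Ppara (median 25 nt), 18 to 31 nt in Hnf4a (median 24 nt) and 18 to 34 nt in Zhx3 (median 26 nt). The other liver clusters had a median of 24 nt. Piwi-bound RNAs are typically longer than microRNAs, and at 27 nt and above lay 34.3% of the sequences of Ppara (23.2 to 46.9%), 27.3% of those of Hnf4a (10.7 to 50.2%) and 31.4% of those of Zhx3 (16.9 to 49.3%), against 30.2% of the 4126 WT sequences of the other liver clusters. Each interval included that value. These lengths count the last base. With a last A left out of the length, the shares were 28.4% in Ppara, 22.7% in Hnf4a and 28.6% in Zhx3. The medians were then 24, 23 and 25 nt. In Hnf4a 7 of 22 sequences were 23 nt long (31.8%, 13.9 to 54.9%), against 15.5% in the other clusters, a value within the interval. The 5 MIWI2 KO sequences of Ppara were 23 to 27 nt long and the 2 of Zhx3 23 and 28 nt.

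**Figure D4:**
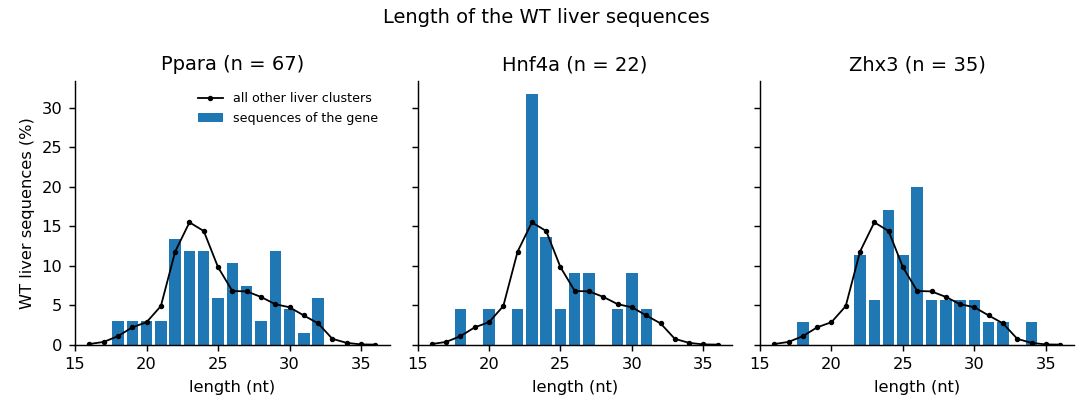
Length in nt of the WT liver sequences of each gene (blue bars, percent of the gene's sequences) with the WT liver sequences of all other liver clusters (black line). Lengths spread from 18 to 34 nt over the 3 genes, and Hnf4a has 7 of its 22 sequences at 23 nt.

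The first base of the RNA was A in 28 of 67 Ppara sequences (41.8%, 29.8 to 54.5%), in 8 of 22 Hnf4a sequences (36.4%, 17.2 to 59.3%) and in 20 of 35 Zhx3 sequences (57.1%, 39.4 to 73.7%). A made up 25.4%, 24.8% and 24.8% of the bases of the respective stretches, below the intervals of Ppara and Zhx3 and within that of Hnf4a. G was first in 5, 1 and 4 sequences, or 7.46% (2.47 to 16.6%), 4.55% (0.115 to 22.8%) and 11.4% (3.2 to 26.7%), and its share of the bases, 23.7%, 25.9% and 24.3%, was above the interval in Ppara and Hnf4a. A low share of G was not particular to these genes, since G was first in 10% of WT sequences of the other liver clusters, a value within all 3 intervals. U, the base with which most germline piRNAs begin, was first in 19 Ppara sequences (28.4%, 18 to 40.7%), 7 Hnf4a sequences (31.8%, 13.9 to 54.9%) and 4 Zhx3 sequences (11.4%, 3.2 to 26.7%). In the other liver clusters U was first in 37.7% and A in 35.2% of WT sequences. Without Vmp1 the order was reversed, with U first in 34.9% and A in 36.8%. The share of U in the Zhx3 stretch, 28.1%, was above the interval. Against the other clusters, with or without Vmp1, the Zhx3 intervals lay wholly below the value for U and above that for A. Those of Ppara and Hnf4a included both. Among sequences of 27 nt or longer, A was first in 13 of 23 in Ppara (56.5%, 34.5 to 76.8%) and in 9 of 11 in Zhx3 (81.8%, 48.2 to 97.7%), with no U in Zhx3, against 37.2% for A in the other clusters. The interval of Ppara included that value, and in Hnf4a A was first in 2 of 6 (33.3%, 4.33 to 77.7%). The base just before the 5' end in the genome was A in 31.3%, 31.8% and 42.9% of Ppara, Hnf4a and Zhx3 sequences, against 33.5% in the other clusters.

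**Figure D5:**
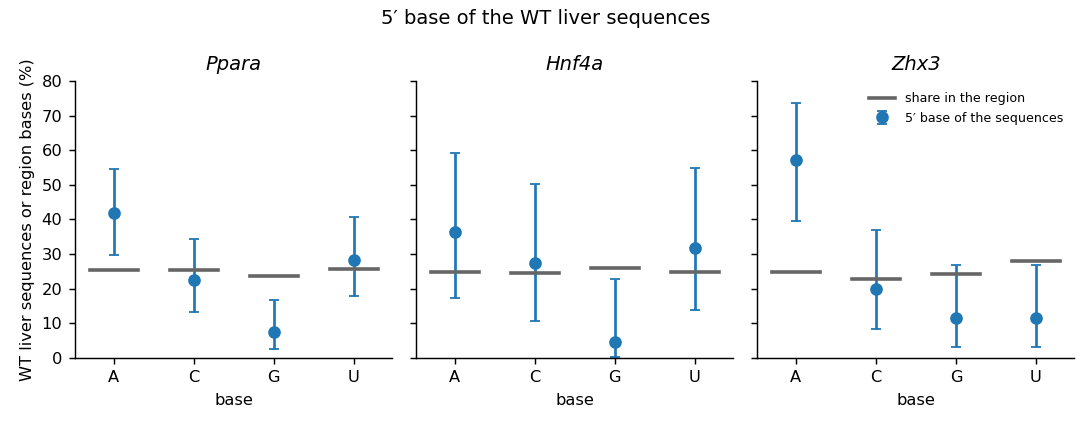
Share of WT liver sequences that begin with each base (blue points, 95% exact Clopper-Pearson intervals) and share of that base in the stretch from the stop codon to the last sequence (grey lines), in percent, for each gene. A lies above the grey line in Ppara and Zhx3 beyond its interval, and G lies below it in Ppara and Hnf4a.

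At the 3' end, A was the last base of 52 of 67 Ppara sequences (77.6%), 19 of 22 Hnf4a sequences (86.4%) and 32 of 35 Zhx3 sequences (91.4%), against 83.1% in the other liver clusters. A last A that differed from the genome was present in 41.8% of Ppara (29.8 to 54.5%), 45.5% of Hnf4a (24.4 to 67.8%) and 34.3% of Zhx3 sequences (19.1 to 52.2%), and each interval included the 45.0% of the other clusters. The authors' adapter trimming allowed mismatches, and whether this A came from the RNA or from leftover adapter was not tested. An exact match that ended in A was found in 34.3%, 31.8% and 45.7%. Within Ppara, the last base was A in 6 of 12 sequences of the annotated 3' UTR (50%, 21.1 to 78.9%) and in 46 of 55 past it (83.6%, 71.2 to 92.2%), with overlapping intervals.

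None of the 5 paralogs of the members, the fatty acid receptors Ppard and Pparg and Hnf4g, Zhx1 and Zhx2, had a sequence in any list. Of 45 other liver transcription factors and nuclear receptors, 7 had at least 3 WT liver sequences, and of all 19880 GENCODE M1 genes with a 3' UTR, 2.25% held a WT liver cluster. The 6 with the most were Cebpa, a leucine zipper factor of hepatocyte differentiation (23 in WT liver and 3 in MIWI2 KO liver), Onecut2, a factor of liver development (15 and 0), Srebf1, which drives fatty acid synthesis (11 and 0), Stat3, which carries the acute-phase signal (7 and 2), Creb3l3, a membrane-bound factor of the fasting response (6 and 0), and Foxa3, a forkhead factor (5 and 1). Past the annotated end, Cebpa had 7 of these WT sequences, Srebf1 5, Creb3l3 2, Foxa3 2, and Onecut2 and Stat3 0. In WT spleen, 5 of the 45 genes had at least 3 sequences, against 1.56% of all genes with a spleen cluster, and each of the 6 named genes had 0.

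Of 19 target genes of the HNF4 alpha protein, 3 had WT liver sequences. These were Apob, the main protein of very low density lipoprotein (19 and 2), Hpx, which binds heme in plasma (8 and 1), and Ugt2b1, a glucuronosyltransferase (3 and 2). None of these 3 genes had a spleen sequence. By the number of sequences in the 4 libraries, the gene nearest to Hnf4a was Noct (21 in WT liver and 0 in MIWI2 KO liver). Those nearest to Zhx3 were Slc38a4 (36 and 2) and Uox (34 and 3), and those nearest to Ppara were Fam210a (70 and 9, with 21 in WT spleen) and Mat1a (44 and 5).

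Of 10 hepatocyte markers, 3 (Alb, Fgb and Ahsg) had sequences in each liver list and none in the spleen lists. None of 10 markers of spleen lymphocytes and red pulp (9 of them protein-coding genes of GENCODE M1) or of 6 of endothelial and Kupffer cells (5 of them) had a sequence listed under its name, so the spleen labels could not be checked this way. Piwil4 had 0 sequences in all 4 lists, which does not measure its mRNA.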

How the data were processed

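Small RNA of 1 WT and 1 MIWI2 KO mouse was sequenced from liver and spleen. The authors trimmed adapters, collapsed identical reads, removed known non-coding RNAs, aligned the rest to mm9 with Bowtie (unique, at most 1 mismatch; base calls by CASAVA 1.8 per the labels) and kept sequences in 3' UTR clusters of sense small RNAs. The deposited lists hold distinct sequences with no read counts, so every sequence counts once however often it was read. The gel range is about 24-31 nt in the labels and wider in the paper's methods.

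Here each of the 7390 distinct sequences was placed on NCBIM37 with at most 1 mismatch by a program written in Python 3.11.15 (numpy 2.4.6, numba 0.67.0), tested on 400 simulated sequences from chromosome 19, of which 400 were found. Every listed sequence had a single best placement. Another, with 1 more mismatch, existed for 7 of the 131 member sequences. The rule and the deposited cluster intervals, in which 4250 of 4273 WT liver sequences lay, gave the same members. Cluster names came from a RefSeq table (GRCm38.p6, names only) for 487 of 488 liver clusters. Intervals are 95% (scipy 1.17.1). The limit for a count of 0 is the upper end of its interval. Library totals for the per-100000 values came from the study's processing table. Named genes are the members, their 2 nearest genes by Euclidean distance of the 4 counts, and up to 6 genes of each list with at least 3 WT liver sequences. Some genes and 1 list that this rule names are not reported here. The members and lists were chosen with earlier results of these data known.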

Additional observations from a re-analysis of the deposited data

How the results depend on the processing

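Of 123 alternatives over 36 values, 111 left the value within its interval or within 1.5 times the count. With exact matches only, the WT liver counts were 36 for Ppara, 9 for Hnf4a and 17 for Zhx3, and the MIWI2 KO counts 1 for Ppara and 1 for Zhx3. With the annotated 3' UTR only, Ppara had 12 WT and 3 KO sequences. With downstream sequences given to the gene with the nearest annotated end on either strand, an alternative chosen after seeing the data, Ppara had 39. Steps of at most 1 kb left Zhx3 1 sequence past its end. Among sequences of 27 nt or longer, 5' A made up 56.5% in Ppara and 81.8% in Zhx3, and 5' U 0% in Zhx3. Apart from the smaller set that each alternative keeps, the cause was not tested. Leaving out Vmp1, the cluster with the most sequences, also chosen after seeing the data, moved no share out of its interval. No paired analysis was possible because each group had 1 library. Depth limits the MIWI2 KO comparison, since the KO list held 560 sequences.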
